A study of Homo sapiens with 8 samples.

Results

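The comparison described here asks what dTAG-13 did to gene expression in Jurkat cells that also received a gamma-secretase inhibitor (GSI). The cells given dTAG-13 and GSI together, named the combination, were set against cells given GSI alone. These were 4 of the 8 RNA libraries of the study, 2 per group, chosen by their treatment labels and not by any measured value. Jurkat is a long-established human cell line from a leukaemia of immature T cells (T-ALL), and all 4 groups carried TAL1 fused to the FKBP12 tag and were grown in RPMI-1640 medium with tetracycline-free serum. Groups were the combination, GSI, dTAG-13 and DMSO, the solvent, each harvested after 24 hours. The labels give neither the doses nor which gamma-secretase inhibitor was used, and they do not say whether the 2 libraries of a group came from separate cultures, so the spread behind each p-value is that between these libraries and may be technical. TAL1 protein was not measured in the data used here, so the extent of its degradation is not known from them.

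TAL1 is a basic helix-loop-helix transcription factor that is silent in most T cells and is switched on in a large class of T-ALL. It pairs with E proteins such as TCF3 and TCF12, binds the short E-box sequence CANNTG, and acts with LMO, LDB1, GATA3, RUNX1 and MYB. E proteins without TAL1 drive genes of developing thymocytes, among them the recombinase genes RAG1 and RAG2. dTAG-13 joins the FKBP12 tag to the cereblon ubiquitin ligase, which marks the tagged protein for degradation. GSI blocks the cleavage that releases the active part of NOTCH receptors, and NOTCH signalling is active in many T-ALL cells, Jurkat among them.

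Library state and identity were checked first. Total counts were 20670781 and 21047303 in the combination, and 20770885 and 21048411 in GSI. Of 63677 listed genes, 15646 passed the filter on low counts and were tested. Among the 4 libraries the largest principal component, with 41.9% of the variance, separated replicate number 1 (-16.9 in the combination, -18.9 in GSI) from number 2 (20.5 in the combination, 15.3 in GSI). The next, with 32.9%, separated the combination (8.08 and 19.8) from GSI (-4.57 and -23.3). Replicate libraries differed by more than sampling noise, with a chi-square per degree of freedom of 13.1 in the combination and 13.9 in GSI, against 6.11 in dTAG-13 and 4.62 in DMSO. T-lineage markers were all detected, and their summed level was 2590 and 2850 CPM (read counts scaled to a common library size) in the combination, and 2740 and 2980 CPM in GSI. The 12 myeloid markers summed to 1.3 and 1.1 CPM in the combination, and 2.11 and 1.83 CPM in GSI, with MPO and S100A8 at 0. Of 14 erythroid and megakaryocytic markers other than TAL1, 9 were at 0, the globins among them. Their sum was 20.2 and 16.9 CPM in the combination, and 16.5 and 18.4 CPM in GSI, mostly from EPOR. Of 12 epithelial and stromal markers 7 were at 0, EPCAM among them. The 12 summed to 2.79 and 2.92 CPM in the combination, and 3.38 and 2.89 CPM in GSI, mostly from COL1A1. The B-cell markers summed to 335 and 383 CPM in the combination, and 350 and 490 CPM in GSI, mostly from IGLL1 and CD79A, with PAX5 at 0 in all 4 libraries.

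TAL1 messenger RNA, the transcript of the targeted protein, stood at 197 and 199 CPM in the combination, and 208 and 198 CPM in GSI. The groups lay close together, with a log2 fold change of -0.04 (SE 0.08, 95% interval -0.20 to 0.13). dTAG-13 acts on the protein, so the transcript level does not by itself report on degradation. TAL1 is also among the genes that TAL1 is reported to activate. Without GSI its transcript was at 145 and 147 CPM in dTAG-13, and 154 and 166 CPM in DMSO. Those groups did not overlap, with a log2 fold change of -0.13. CRBN, the cereblon gene, was at 52.1 and 52.5 CPM in the combination, and 51.2 and 54.1 CPM in GSI. FKBP1A, which encodes cellular FKBP12 itself, was at 622 and 757 CPM in the combination, and 703 and 746 CPM in GSI, so both groups overlapped. Whether reads of the FKBP12 tag were counted at FKBP1A was not examined.

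Few genes passed the test between the combination and GSI, and they included both subunits of the V(D)J recombinase. edgeR's quasi-likelihood test with Benjamini-Hochberg adjustment over all genes called 9 genes at an adjusted p below 0.05, which is 0.0575% of those tested. RAG1, RAG2 and SH3TC1 rose (3 genes, 0.0192%). CD40LG, PLCH1, ALDH1A2, KRT1, GZMA and the clone-named gene RP5-1028K7.2 fell (6 genes, 0.0383%). DESeq2 called these 9 and 14 more, 23 in all (0.147%), of which 6 were higher and 17 lower. At an unadjusted p below 0.05 edgeR gave 648 genes (4.14%), 271 higher (1.73%) and 377 lower (2.41%). The CPM ranges of both groups did not overlap for 4032 genes (25.8%). Of these, 1848 (11.8% of all genes) were higher and 2184 (14%) lower in the combination. With 2 libraries a group, ranges separate for many genes without any effect, so these shares serve only as background. The 4.14% with an unadjusted edgeR p below 0.05 is also no more than unchanged genes alone would give. In bulk RNA, fewer cells expressing a gene and less RNA per cell cannot be told apart.

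**Figure D1:**
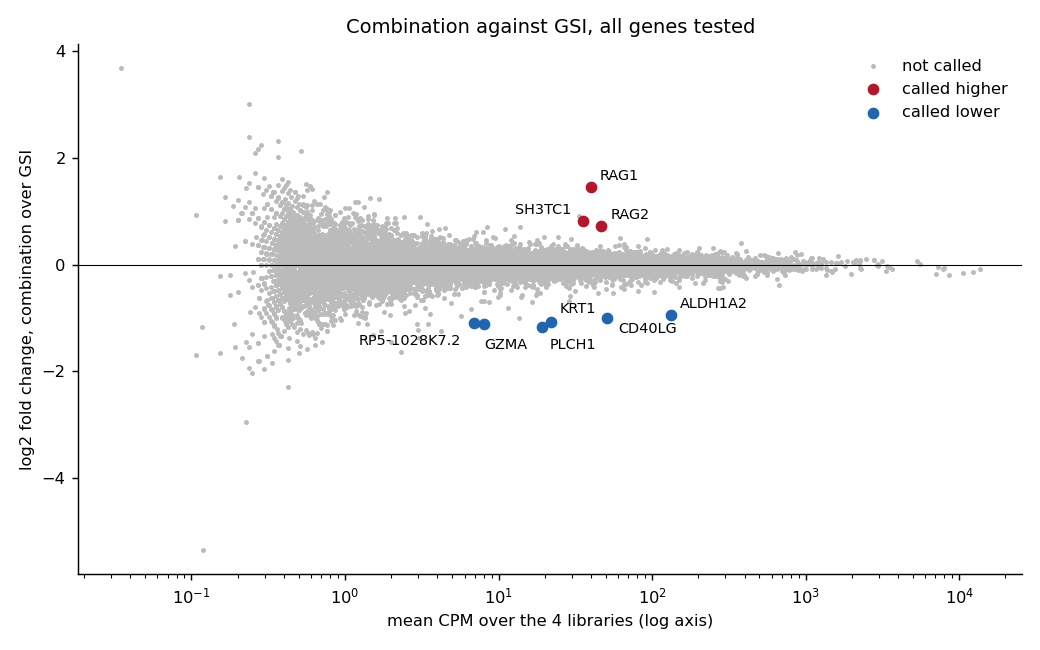
Log2 fold change of the combination over GSI (vertical axis) against mean CPM over the 4 libraries (horizontal log axis), 1 point per tested gene. The 3 genes called higher are red and the 6 called lower are blue. Some uncalled genes of like level changed as much, such as GPR56 (0.90) beside the called SH3TC1 (0.81). Genes below about 1 CPM scatter more widely without being called.

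RAG1 (ENSG00000166349) and RAG2 (ENSG00000175097) encode the 2 proteins that cut DNA to rearrange antigen receptor genes. RAG1 was at 65.6 and 51.5 CPM in the combination, and 24.0 and 18.8 CPM in GSI. Both combination libraries lay above both GSI libraries by a wide margin, and the log2 fold change was 1.45 (SE 0.13, edgeR adjusted p = 0.000696), a 2.74-fold difference. RAG2 was at 59.6 and 56.4 CPM in the combination, and 36.6 and 34.0 CPM in GSI, again without overlap. Its log2 fold change was 0.72 (SE 0.11, edgeR adjusted p = 0.0465), a 1.64-fold difference.

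SH3TC1 (ENSG00000125089), which encodes a protein with SH3 and tetratricopeptide repeats, was at 46.2 and 43.5 CPM in the combination, and 25.3 and 25.9 CPM in GSI. The replicates of each group lay close together, and the log2 fold change was 0.81 (SE 0.09, edgeR adjusted p = 0.00397). Its level in the other groups was far higher, at 148 and 167 CPM in dTAG-13, and 126 and 122 CPM in DMSO. SH3TC1 in the combination therefore lay above GSI and below both groups without GSI.

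Of the genes that fell, CD40LG (ENSG00000102245) encodes the CD40 ligand, a TNF-family protein with which T cells activate B cells. It was at 32.5 and 35.5 CPM in the combination, and 68.9 and 67.8 CPM in GSI. The combination held 0.497 of the GSI level, a log2 fold change of -1.01 (SE 0.09, edgeR adjusted p = 0.000696). PLCH1 (ENSG00000114805), a phospholipase C of the eta type, which cleaves a membrane phosphoinositide to make second messengers, was at 11.5 and 11.9 CPM in the combination, and 27.3 and 25.9 CPM in GSI. Its log2 fold change of -1.18 (SE 0.11, edgeR adjusted p = 0.000696) was the most negative of the called genes.

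ALDH1A2 (ENSG00000128918), a retinaldehyde dehydrogenase that makes retinoic acid and is known as a TAL1 target in T-ALL, was at 98.1 and 82.7 CPM in the combination, and 189 and 159 CPM in GSI. The groups were far apart, with a log2 fold change of -0.95 (SE 0.11, edgeR adjusted p = 0.00397). KRT1 (ENSG00000167768), a keratin known from skin, was at 13.5 and 14.6 CPM in the combination, and 25.4 and 33.8 CPM in GSI, a log2 fold change of -1.08 (SE 0.14, edgeR adjusted p = 0.0104). The epithelial keratin markers KRT18 and KRT19 were at 0 in all 4 libraries. KRT8 was detected at low levels, 0.186 and 0.575 CPM in the combination, and 0.235 and 0.338 CPM in GSI. GZMA (ENSG00000145649), a serine protease of cytotoxic granules, was at 5.45 and 4.70 CPM in the combination, and 10.5 and 11.4 CPM in GSI, a log2 fold change of -1.11 (SE 0.16, edgeR adjusted p = 0.0284). RP5-1028K7.2 is named here after its values were seen, since clone names lay outside the naming rule. It was at 4.56 and 4.17 CPM in the combination, and 9.43 and 9.31 CPM in GSI, with a log2 fold change of -1.10 (SE 0.17, edgeR adjusted p = 0.0465).

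Calls differed in how much they leaned on single libraries. CD40LG, PLCH1, RAG1, ALDH1A2 and SH3TC1 passed edgeR's threshold with any 1 of the 4 libraries left out. GZMA, RAG2 and RP5-1028K7.2 lost the call whichever library was left out, with an adjusted p of 0.0935 to 0.156 for GZMA, 0.106 to 0.268 for RAG2 and 0.156 to 0.216 for RP5-1028K7.2. KRT1 lost it without either combination library, at adjusted p of up to 0.112. Fitted on the 4 compared libraries alone, edgeR called only RAG1, CD40LG and PLCH1. ALDH1A2 then had an adjusted p of 0.0672 and SH3TC1 one of 0.0887, while their fold changes hardly moved.

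**Figure D2:**
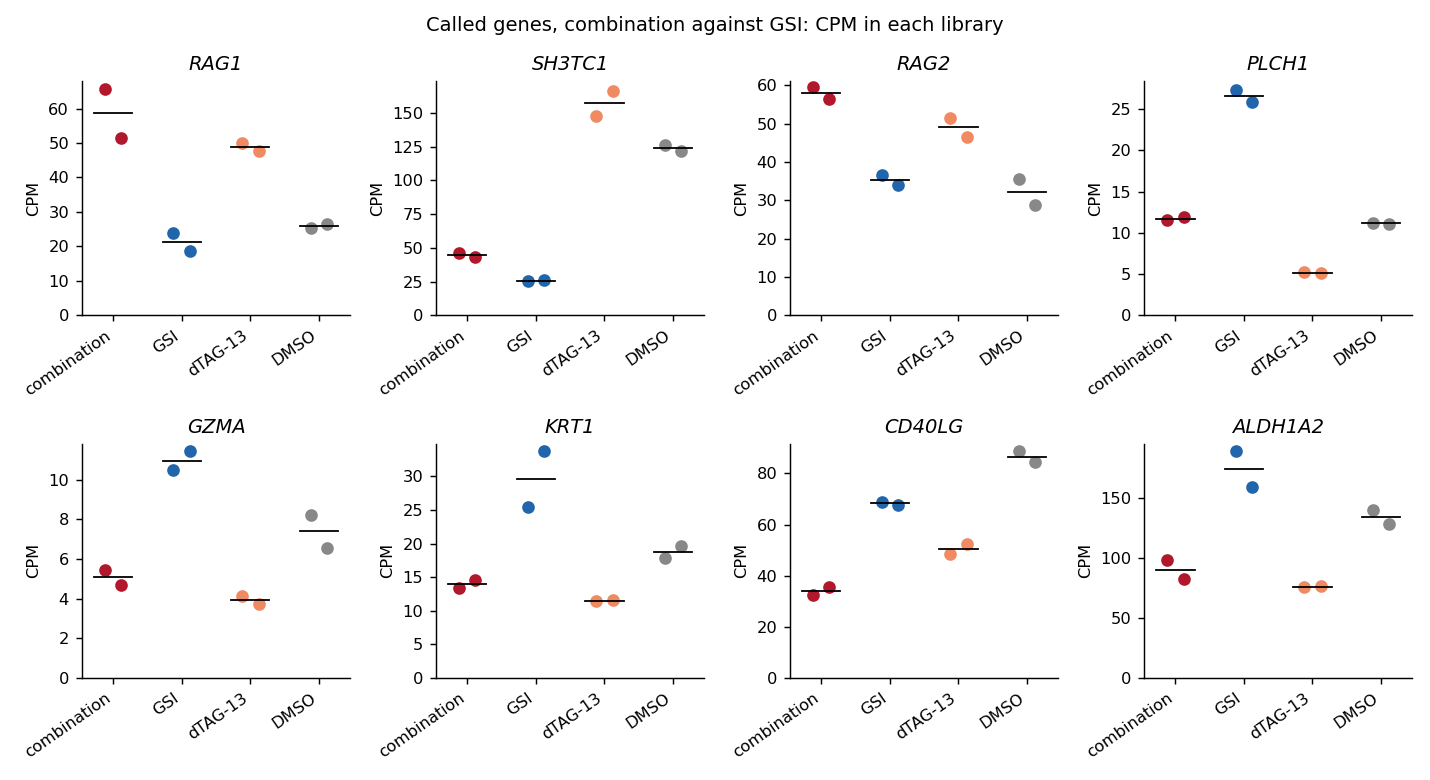
CPM of the 8 called genes with ordinary symbols (vertical axes, from 0) in each library of the 4 groups; points are libraries and horizontal bars are means of 2. In every panel both combination points lie on 1 side of both GSI points, and the dTAG-13 points lie on the same side of the DMSO points.

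The promoters of the called genes are shown because TAL1 and E proteins bind E-boxes, so a reader can see which of these genes carry the letters near their start. RefSeq windows on GRCh38.p14, 250 bases before to 50 bases after the annotated start, were matched by symbol for 6 of 8 called genes. CD40LG and KRT1 had no entry. Capitals mark matches, on either strand, to CAGNTG (an E-box form bound by TAL1 and its partners), AGATAA (for factors of the GATA family) and TGTGGT (for RUNX factors). RAG1, at chr11:36510103-36510402 (+), RAG2, at chr11:36598187-36598486 (−), and SH3TC1, at chr4:8199040-8199339 (+), are the genes that rose.
RAG1: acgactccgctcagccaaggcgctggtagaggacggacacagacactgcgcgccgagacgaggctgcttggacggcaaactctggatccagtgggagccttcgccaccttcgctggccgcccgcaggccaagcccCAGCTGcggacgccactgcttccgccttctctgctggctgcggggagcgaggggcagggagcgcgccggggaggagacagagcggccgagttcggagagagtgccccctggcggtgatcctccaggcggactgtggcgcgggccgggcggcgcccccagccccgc
RAG2: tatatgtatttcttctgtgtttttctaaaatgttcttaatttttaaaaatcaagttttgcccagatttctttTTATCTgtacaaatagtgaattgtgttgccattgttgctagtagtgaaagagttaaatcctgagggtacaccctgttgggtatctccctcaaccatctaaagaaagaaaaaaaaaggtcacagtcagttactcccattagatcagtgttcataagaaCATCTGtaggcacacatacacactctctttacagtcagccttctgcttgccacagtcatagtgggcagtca
SH3TC1: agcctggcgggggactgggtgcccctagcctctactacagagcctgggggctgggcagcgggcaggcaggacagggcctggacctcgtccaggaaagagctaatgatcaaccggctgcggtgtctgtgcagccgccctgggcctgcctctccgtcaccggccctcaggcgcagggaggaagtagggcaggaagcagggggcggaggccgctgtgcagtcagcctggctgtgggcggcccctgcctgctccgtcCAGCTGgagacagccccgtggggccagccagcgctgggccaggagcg
PLCH1, at chr3:155745022-155745321 (−), ALDH1A2, at chr15:58065662-58065961 (−), and GZMA, at chr5:55102396-55102695 (+), are genes that fell.
PLCH1: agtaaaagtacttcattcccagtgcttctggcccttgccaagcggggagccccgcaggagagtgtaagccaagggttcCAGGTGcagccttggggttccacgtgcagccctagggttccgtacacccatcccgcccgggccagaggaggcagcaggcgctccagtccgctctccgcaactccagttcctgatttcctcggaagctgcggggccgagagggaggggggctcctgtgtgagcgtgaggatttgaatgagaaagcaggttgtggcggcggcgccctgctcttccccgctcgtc
ALDH1A2: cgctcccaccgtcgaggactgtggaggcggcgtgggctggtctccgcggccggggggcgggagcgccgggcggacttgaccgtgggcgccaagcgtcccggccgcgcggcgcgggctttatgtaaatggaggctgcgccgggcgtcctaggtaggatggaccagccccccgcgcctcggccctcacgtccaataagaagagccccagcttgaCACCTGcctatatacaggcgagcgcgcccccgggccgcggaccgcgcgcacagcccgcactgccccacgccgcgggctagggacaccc
GZMA: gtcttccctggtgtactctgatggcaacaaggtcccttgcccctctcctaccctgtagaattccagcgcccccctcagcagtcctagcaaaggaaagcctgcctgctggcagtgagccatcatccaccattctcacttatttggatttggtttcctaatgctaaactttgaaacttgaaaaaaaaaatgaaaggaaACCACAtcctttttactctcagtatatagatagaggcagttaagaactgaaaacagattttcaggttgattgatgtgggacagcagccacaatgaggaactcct

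An E-box of the form CAGNTG stood in 5 of these 6 windows, RAG1, RAG2, SH3TC1, PLCH1 and ALDH1A2, and in 49.9% of 35116 RefSeq windows of the same length. RAG1 and SH3TC1 held CAGCTG, PLCH1 held CAGGTG and ALDH1A2 held its reverse complement CACCTG. Only RAG2 among the 6 held the form CAGATG, which also matches CAGNTG, as its reverse complement CATCTG. That form stood in 14.7% of all windows. RAG2 also held the GATA letters as TTATCT, which stood in 10.3% of all windows, and GZMA held the RUNX letters as ACCACA, which stood in 13.1%. SH3TC1 and ALDH1A2 each had a second listed start whose window held 2 E-boxes. In SH3TC1, 1 of these 2 was of the form CAGATG, and the ALDH1A2 window also held 1 match to the GATA letters. Genes that rose and genes that fell both carried E-box letters, a match is not a bound site, and which start Jurkat cells use was not examined.

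Below the called genes, the naming rule gave the next smallest p-values in each direction until 6 genes stood in it, and only HHIP was needed for the lower side, beside the 5 called genes with ordinary symbols. HHIP, an antagonist of hedgehog ligands, was at 67.0 and 66.9 CPM in the combination, and 96.5 and 91.6 CPM in GSI (log2 fold change -0.49, edgeR adjusted p = 0.0549). Its groups were well apart, and DESeq2 called it. An antisense gene lies beside HHIP, and the strand setting of the counting is not given in the sources used here. On the higher side PMEPA1, known as a target and inhibitor of TGF-beta signalling, was at 113 and 103 CPM in the combination, and 80.8 and 74.5 CPM in GSI (log2 fold change 0.47, edgeR adjusted p = 0.0924). ASS1, the urea-cycle enzyme that makes argininosuccinate, was at 15.97 and 17.98 CPM in the combination, and 9.06 and 11.9 CPM in GSI (log2 fold change 0.70, edgeR adjusted p = 0.147). GPR56, an adhesion G-protein-coupled receptor, was at 54.2 and 32.9 CPM in the combination, and 25.2 and 21.4 CPM in GSI (log2 fold change 0.90, edgeR adjusted p = 0.231). None of the 4 passed edgeR's threshold, and all 4 passed that of DESeq2. The other 10 genes that DESeq2 added were lower in the combination, TSPAN7 and GIMAP1 among them. TUSC5 and KIAA1462, both under 5 CPM on average, had edgeR log2 fold changes of -1.63 and -1.25, and the clone-named RP4-647J21.1 had -0.53. The others had edgeR log2 fold changes of -0.51 for CD84, -0.41 for MYO1G, -0.68 for DPF3, -0.60 for PALD1 and -0.997 for SEMA4A. None of the 10 passed edgeR's threshold. CD84 is a receptor of the SLAM family, MYO1G a myosin of blood cells, DPF3 a chromatin-remodelling subunit and SEMA4A a semaphorin.

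Genes were also grouped by role, in 27 lists holding 388 genes, of which 354 were tested. Not all of the lists are described below. Of the 12 genes that TAL1 is reported to activate in T-ALL cells, all 12 were tested and all 12 had negative log2 fold changes, with a median of -0.32, beside -0.004 over all genes tested, of which 8011 of 15646 were negative. Only ALDH1A2 passed edgeR's test. The groups did not overlap for 9 of the 12, against 14% of all genes. STAT5A, a cytokine-signalling transcription factor, was at 6.98 and 6.18 CPM in the combination, and 10.6 and 10.8 CPM in GSI (log2 fold change -0.70, SE 0.13). SIX6, a homeobox gene, was at 39.1 and 45.0 CPM in the combination, and 52.2 and 63.2 CPM in GSI (-0.45, SE 0.11). TSPAN7, a tetraspanin, was at 242 and 227 CPM in the combination, and 330 and 305 CPM in GSI (-0.44, SE 0.09). In each of these genes both combination libraries lay below both GSI libraries. None passed edgeR's threshold in the model without a replicate block, and DESeq2 called TSPAN7. This list and all those below were drawn up with earlier results of these data known, so their directions and shares are not independent evidence.

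The TAL1 complex and its core circuit overlap that list. Of 13 members 12 were tested, none passed the test, 9 were negative and 3 positive, and the median was -0.04. MYB, a haematopoietic transcription factor, was at 281 and 276 CPM in the combination, and 355 and 330 CPM in GSI, a log2 fold change of -0.30. GATA3, a T-lineage zinc-finger factor, was at 107 and 101 CPM in the combination, and 118 and 119 CPM in GSI, a log2 fold change of -0.19. Both had groups that did not overlap. LYL1, a close relative of TAL1, also had a negative fold change (-0.35), as had ARID5B, a chromatin-binding factor of the preceding list (-0.33). RUNX1 overlapped between groups (-0.12), and LMO2 was too low to be tested.

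Among 12 E-protein-associated thymocyte genes, RAG1 and RAG2 rose and none fell by the test, with 8 positive, 4 negative and a median log2 fold change of 0.21. Groups did not overlap for 6 higher and 2 lower members, against 11.8% and 14% of all genes. PTCRA, which encodes the alpha chain of the pre-T cell receptor, was at 2.84 and 1.82 CPM in the combination, and 1.27 and 1.45 CPM in GSI (0.78, SE 0.27). CXCR4, a chemokine receptor, was at 459 and 425 CPM in the combination, and 380 and 365 CPM in GSI (0.25, SE 0.08). CD5 and CD6, surface brakes on T cell receptor signalling, lay the other way, at -0.24 and -0.22. ID3, an inhibitor that keeps E proteins off DNA, was at 68.9 and 79.7 CPM in the combination, and 50.1 and 63.5 CPM in GSI (0.39, SE 0.12). The other tested ID inhibitors, ID1 and ID2, had log2 fold changes of -0.03 and 0.06. Apart from RAG1 and RAG2, none of the genes named here passed edgeR's threshold.

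Most of the T cell receptor signalling list lay slightly below 0. Of its 22 genes 20 were negative, none passed the test, 13 were lower in the combination without overlap (14% of all genes), and the median was -0.10. LCP2, the adaptor SLP-76, was at 116 and 140 CPM in the combination, and 169 and 175 CPM in GSI (-0.43, SE 0.09), the lowest value of the list. TRAC, the constant part of the receptor alpha chain, was at 148 and 184 CPM in the combination, and 202 and 223 CPM in GSI (-0.35, SE 0.10). The rearranged segment TRAV8-4, which shares its transcript with TRAC, had -0.25. Of the 8 tested antigen receptor and CD3 genes 4 were positive and 4 negative.

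The GIMAP genes encode a family of small GTPases that support lymphocyte survival, and they lie side by side in the genome. All 7 were tested, none passed edgeR's test, and 6 were lower without overlap (14% of all genes), with a median of -0.38. GIMAP1 was at 11.5 and 13.5 CPM in the combination, and 18.9 and 21.8 CPM in GSI (-0.70, SE 0.12), and DESeq2 called it. GIMAP4 was at 37.6 and 33.8 CPM in the combination, and 47.5 and 48.1 CPM in GSI (-0.42, SE 0.09). GIMAP5 was at 34.3 and 37.0 CPM in the combination, and 44.3 and 48.7 CPM in GSI (-0.38, SE 0.09). The exception was GIMAP8, higher at 0.931 and 0.911 CPM in the combination, and 0.704 and 0.675 CPM in GSI, levels near the limit of the filter. Near copies of this family can share reads.

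Among 11 tested TNF ligands and receptors only CD40LG passed, with 4 positive, 7 negative and a median of -0.09. TNFSF10, the death ligand TRAIL, was at 2.61 and 2.30 CPM in the combination, and 4.46 and 3.28 CPM in GSI (-0.66, SE 0.21). FAS, a death receptor, was at 21.8 and 23.4 CPM in the combination, and 28.4 and 26.2 CPM in GSI (-0.27, SE 0.10). Of 12 tested phospholipase C genes only PLCH1 passed, and the others lay between -0.35 and 0.29. PLCG1, the main form downstream of the T cell receptor, had -0.13 (95% interval -0.29 to 0.04) and PLCG2 -0.16 (95% interval -0.37 to 0.05). PRKCE, a protein kinase C that responds to the diacylglycerol phospholipases make, was at 11.4 and 10.6 CPM in the combination, and 16.5 and 17.3 CPM in GSI (-0.61, SE 0.11), without passing the test.

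ERK feedback and early response genes had a median of -0.18. Of 20 tested, 13 were negative, beside 8011 of 15646 over all genes, 10 were lower without overlap (14% of all genes) and none passed edgeR's test. CD69, an early activation antigen, was at 3.68 and 4.03 CPM in the combination, and 7.51 and 7.48 CPM in GSI (-0.96, SE 0.17). ETV5, an ETS factor induced by ERK, was at 9.91 and 6.71 CPM in the combination, and 15.8 and 13.4 CPM in GSI (-0.81, SE 0.18). DUSP6, a phosphatase that turns ERK off, was at 1.86 and 1.53 CPM in the combination, and 2.96 and 3.42 CPM in GSI (-0.91, SE 0.22). DUSP2 lay on the positive side at 0.24, with overlapping groups.

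Trafficking receptors and integrins gave 12 negative and 4 positive values among 16 tested, with a median of -0.12 and no call. CCR4, a chemokine receptor of helper T cells, was at 1.91 and 1.68 CPM in the combination, and 3.94 and 4.48 CPM in GSI (-1.23, SE 0.21). ITGA4, the alpha-4 integrin, was at 133 and 119 CPM in the combination, and 171 and 151 CPM in GSI (-0.35, SE 0.09). Both were lower in both combination libraries. CCR9, a gut-homing receptor, was at 1.117 and 1.678 CPM in the combination, and 0.986 and 0.772 CPM in GSI (0.66, SE 0.37).

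NOTCH1 targets are the genes that GSI is known to lower. Of 16 tested, 9 were positive and 7 negative, with a median of 0.10 and no call. Groups did not overlap for 5 higher and 2 lower members, against 11.8% and 14% of all genes. The most positive value was that of PTCRA (0.78), which is also in the E-protein-associated list. DTX1, a ubiquitin ligase induced by NOTCH, was at 19.74 and 16.97 CPM in the combination, and 18.3 and 18.9 CPM in GSI, so the groups overlapped (-0.02, SE 0.11). The groups without GSI stood far above, at 99.5 and 104 CPM in dTAG-13, and 138 and 154 CPM in DMSO. HES1, a repressor induced by NOTCH, was at 1.44 and 2.16 CPM in the combination, and 2.39 and 3.28 CPM in GSI (-0.66, SE 0.24). MYC, the growth regulator, was at 200 and 225 CPM in the combination, and 170 and 190 CPM in GSI (0.24, SE 0.09), against 348 and 352 CPM in dTAG-13 and 349 and 340 CPM in DMSO. NOTCH3 (0.28) and HES4 (0.23) overlapped between groups.

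Growth and stress lists held no called gene. The 20 mitosis genes had a median of -0.04, with 13 negative, and the 20 genes of DNA replication a median of -0.02. Ribosome biogenesis stood at 0.01 and cytosolic ribosomal proteins at 0.04. Of 14 amino acid stress genes 13 were positive, 6 were higher without overlap (11.8% of all genes), and the median was 0.15. SLC7A11, the cystine importer, was at 10.3 and 11.5 CPM in the combination, and 8.31 and 6.94 CPM in GSI (0.51, SE 0.15). In the BCL2 family 9 of 12 were positive. BIK, a pro-death member, was at 24.4 and 22.0 CPM in the combination, and 14.2 and 18.2 CPM in GSI (0.52, SE 0.14), while BCL2 itself, which protects cells from death, was at 28.9 and 25.9 CPM in the combination, and 32.3 and 34.8 CPM in GSI (-0.29, SE 0.11). All 13 transcripts of the mitochondrial genome were negative, with a median of -0.09 and 4 lower without overlap (14% of all genes). Mitochondrial genes took 7.8% and 8.41% of the counts in the combination, and 8.59% and 8.81% in GSI, and the part of this share in the list values was not tested.

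**Figure D3:**
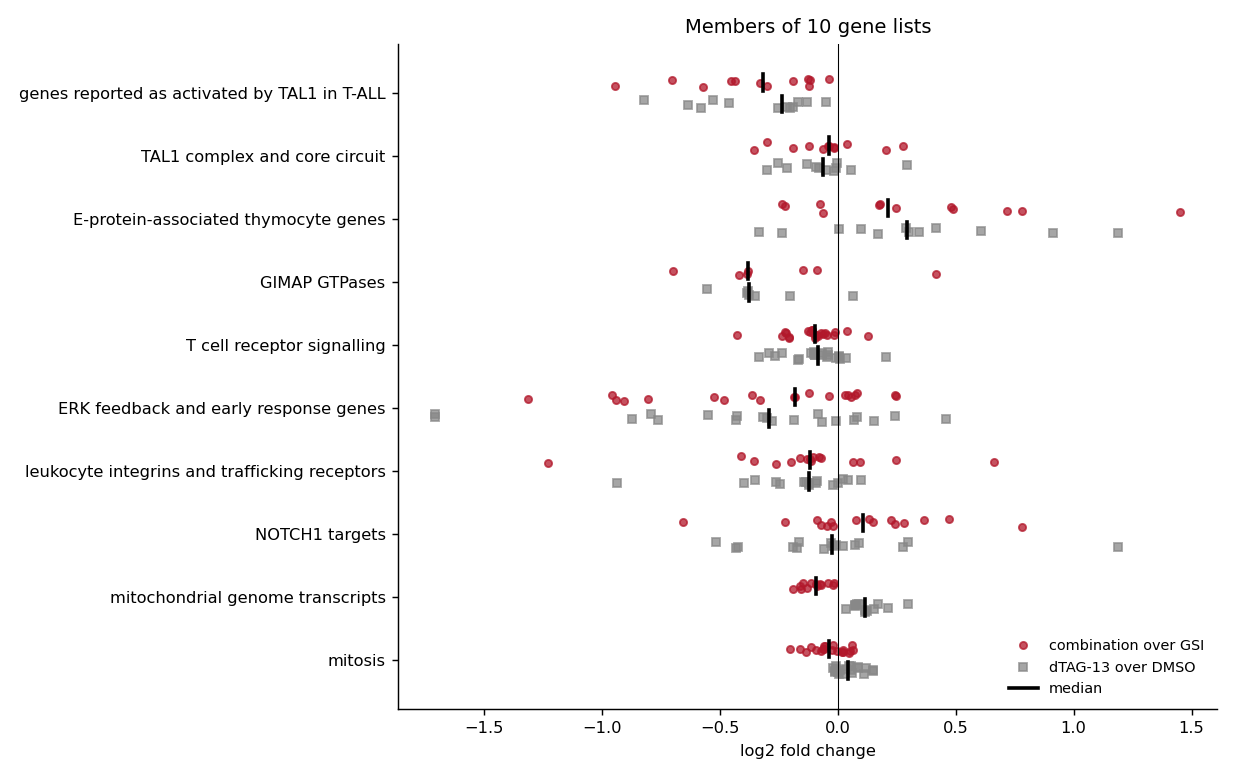
Log2 fold changes (horizontal axis) of the tested members of 10 gene lists, combination over GSI (red circles) above dTAG-13 over DMSO (grey squares), with vertical black bars at the medians. Genes that TAL1 is reported to activate and most GIMAP genes lie left of 0 in both comparisons, RAG1 is the rightmost red circle among E-protein-associated genes, and mitochondrial transcripts lie on opposite sides of 0.

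The cereblon list holds transcripts of the ligase that dTAG-13 recruits and of proteins that cereblon drugs can degrade. None of its 13 genes passed, 6 were positive and 7 negative, and the median was -0.007. ZNF692, a zinc-finger gene, was at 68.9 and 67.6 CPM in the combination, and 49.98 and 56.38 CPM in GSI (0.36, SE 0.09). IKZF1, the lymphoid regulator Ikaros, was at 409 and 411 CPM in the combination, and 467 and 415 CPM in GSI (-0.11, SE 0.09). These are transcripts, the proteins were not measured, and no group had dTAG-13 without tagged TAL1, so effects of the compound and of TAL1 loss cannot be told apart.

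Whether dTAG-13 had the same effect with and without GSI was asked with the second pair of groups, dTAG-13 against DMSO, which shares no library with the first. That comparison had 3 edgeR calls (0.0192%), all lower: CD40LG, PLCH1 and ALDH1A2, which also fell in the combination. Its groups did not overlap for 5523 genes (35.3%), 17.7% of all genes higher and 17.6% lower. All 9 genes called under GSI had the same sign without it. RAG1 was at 50.1 and 47.8 CPM in dTAG-13, and 25.4 and 26.6 CPM in DMSO, a log2 fold change of 0.91 beside 1.45 under GSI. CD40LG had -0.78 beside -1.01, PLCH1 -1.11 beside -1.18, ALDH1A2 -0.82 beside -0.95, and RAG2 0.61 beside 0.72, each with the value under GSI given last. SH3TC1 had 0.34 beside 0.81, KRT1 -0.70 beside -1.08, and GZMA -0.90 beside -1.11. The change was larger under GSI for 8 of the 9 called genes, but these genes were chosen on that contrast, so larger values there are no finding.

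Tested directly, no gene passed for a difference of the dTAG-13 effect between cells with and without GSI. edgeR's test of (combination minus GSI) minus (dTAG-13 minus DMSO) called 0 of 15646 genes, DESeq2 called 0, and 260 (1.66%) had an unadjusted edgeR p below 0.05, 128 higher (0.818%) and 132 lower (0.844%). The difference of log2 effects was 0.54 for RAG1 (95% interval 0.13 to 0.95) and 0.47 for SH3TC1 (0.20 to 0.74), both with an edgeR adjusted p of 0.9999. For CD40LG it was -0.23 (-0.50 to 0.04), for PLCH1 -0.06 (-0.43 to 0.30) and for ALDH1A2 -0.13 (-0.45 to 0.20). For RAG2 it was 0.11 (-0.23 to 0.45), for KRT1 -0.37 (-0.80 to 0.06) and for GZMA -0.21 (-0.72 to 0.30). The last 6 of these intervals include 0 and also hold differences of some size, so neither a difference nor equal effects are shown. DTX1 had one of the wider gaps among the fixed genes, with -0.02 under GSI and -0.52 without it, a difference of 0.50 (0.19 to 0.81). ID2, an inhibitor of E proteins, had 0.06 under GSI and 0.71 without it, a difference of -0.64 (-1.08 to -0.21). It was at 7.19 and 7.92 CPM in dTAG-13, and 4.68 and 4.58 CPM in DMSO, while the combination at 8.15 and 7.62 CPM and GSI at 7.60 and 7.48 CPM lay together. Wider gaps than that of ID2 stood among other list members. CDKN1A, at low counts, had 0.21 under GSI and 1.24 without it. The intervals are not adjusted for the number of genes.

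Across all tested genes the direction of the dTAG-13 effect was shared for 8913 of 15646 (57%) between both comparisons. Among the 10555 genes averaging 5 CPM or more over 8 libraries it was shared for 6177 (58.5%), and Pearson's r of the log2 fold changes was 0.41 and Spearman's rho 0.27. These are values across genes, which are not independent replicates, and the libraries of both comparisons were scaled together. Sharing depended on the strength of the difference under GSI. Signs matched for 8388 of 14998 genes (55.9%) with an unadjusted edgeR p of 0.05 or more, for 525 of 648 (81%) below 0.05, and for 47 of 48 (97.9%) below 0.001. CHKB, a choline kinase named after its values were seen, was the exception among the 48. Both pairs of groups were separate and in the same direction for 1199 genes (7.66%), 493 higher (3.15%) and 706 lower (4.51%) with dTAG-13. The median size of the log2 fold change at 5 CPM or more was 0.065 in each comparison.

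**Figure D4:**
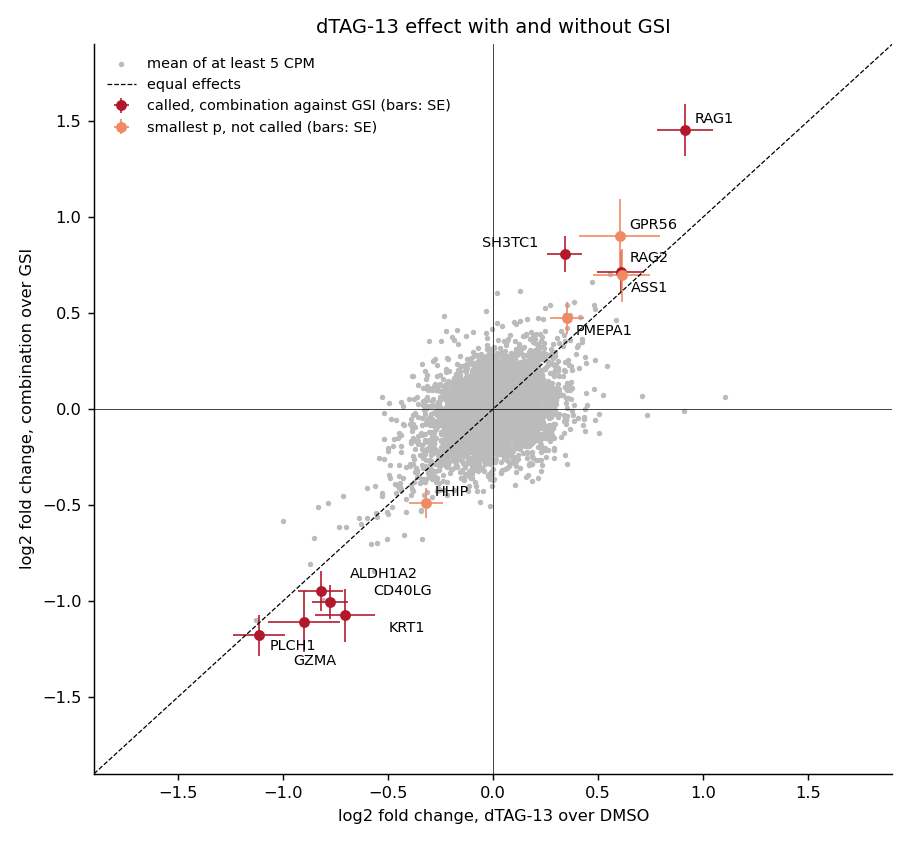
Log2 fold change of the combination over GSI (vertical axis) against that of dTAG-13 over DMSO (horizontal axis) for 10555 genes averaging 5 CPM or more (grey); called genes (red) and those next by p (orange) have bars of 1 SE in each direction. The marked genes lie in the lower left and upper right of the plot near the dashed line of equal effects. All 12 have the larger change on the vertical axis, the contrast by which they were chosen. RAG1 and SH3TC1 lie farthest above the line.

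Medians of the gene lists are set side by side for both comparisons. The genes that TAL1 is reported to activate had a median of -0.32 under GSI and -0.24 without it, with 12 of 12 negative in each. GIMAP genes had -0.38 in both, T cell receptor signalling -0.10 and -0.08, E-protein-associated genes 0.21 and 0.29, and ERK feedback genes -0.18 and -0.29, the value under GSI given first. Amino acid stress genes had 0.15 under GSI and 0.03 without it, and mitosis genes -0.04 and 0.04. Mitochondrial transcripts were negative in 13 of 13 under GSI and positive in 13 of 13 without it, with medians of -0.09 and 0.12. In the groups without GSI, mitochondrial genes took 8.29% and 8.74% of the counts in dTAG-13, and 8.06% and 7.97% in DMSO. The part of these library shares in the signs was not tested. The test of the difference called no member of any list.

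Placed beside the GSI effect, which shares the GSI libraries with this comparison, the called genes had different patterns of level. PLCH1 stood at 11.5 and 11.9 CPM in the combination, 27.3 and 25.9 CPM in GSI, 5.21 and 5.13 CPM in dTAG-13, and 11.3 and 11.1 CPM in DMSO, so the combination and DMSO lay within 1 CPM of each other. ALDH1A2 stood below DMSO in the combination, at 98.1 and 82.7 CPM against 140 and 129 CPM, and above it in GSI, at 189 and 159 CPM. CD40LG was lower than DMSO (88.8 and 84.3 CPM) in every treated group, and the combination held its lowest levels. RAG1 was highest in the combination, then in dTAG-13, with GSI and DMSO lowest and overlapping none of the dTAG-13 or combination libraries. KRT1 and GZMA had their highest levels in GSI and their lowest in dTAG-13. SH3TC1 had its lowest levels in GSI and its highest in dTAG-13, with the combination nearer to GSI.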

How the data were processed

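Total RNA of TAL1-FKBP12 Jurkat cells was sequenced from both ends in strand-specific libraries. The authors deposited whole-number counts per gene and library, and per the submitters' processing notes their tools were DESeq2 1.12.4, STAR 2.5.2a and featureCounts, on hg19. Which strand setting and annotation the counting used is not given in the sources used here, and overlapping and antisense genes and near copies are read with caution. Genes were filtered with filterByExpr, scaled by TMM and fitted with edgeR 4.0.16 (robust quasi-likelihood, R 4.3.3) in 1 model of 4 groups over 8 libraries, with 4 residual degrees of freedom and a common biological coefficient of variation of 0.0804. p-values are 2-sided and adjusted by Benjamini-Hochberg over 15646 genes at 0.05. SE and 95% intervals come from the quasi-likelihood F-test, and each SE is the fold change divided by the root of F. Pooling the spread over 4 groups was chosen because each has 2 libraries. Replicates differed more in the combination and GSI than in dTAG-13 and DMSO, so the pooled spread may be too small for this comparison. The edgeR step was tested on simulated data.

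Named genes are the called genes with a symbol that is no clone name, a mean of at least 5 CPM and groups that do not overlap, then those of smallest p until 6 stand in each direction, beside fixed genes and, per direction, at most 3 members of a list. The genes, lists and tests were chosen with earlier results of these data known. Alternatives were RLE size factors, no filter, DESeq2 1.42.0, a replicate block, the 4 libraries alone and leaving out each library. Depth was 17544319 to 22180009 counts per library. The authors' own comparison tables were not used. Values of a few genes are not reported here.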

Additional observations from a re-analysis of the deposited data

How the results depend on the processing

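All 9 calls held with RLE size factors. Without the filter on low counts, 14 genes were higher and 45 lower in the combination than in GSI, over 30406 genes. DESeq2 gave 6 higher and 17 lower. The replicate block gave 6 higher and 28 lower, with STAT5A, TSPAN7, GIMAP1, CD69, ETV5, PRKCE and CCR4 among the genes it added. The 4 libraries alone gave 1 higher and 2 lower, and with the replicate block 63 higher and 114 lower on 1 residual degree of freedom. The 9 genes were among the calls of each of these fits except that of the 4 libraries alone without the block, which lost 6. The block is not taken as a pairing: libraries of the combination and of GSI with the same number deviated together (r = 0.58 over 10555 genes), as did dTAG-13 with each of them (r = 0.504 and 0.526). DMSO ran the other way with all 3 (r = -0.134 with the combination, -0.369 with GSI and -0.183 with dTAG-13), there are only 2 numbers, and the labels do not say what a number shares.

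Leaving out 1 library left 2 to 3 genes higher and 3 to 5 lower, the lone library being assumed to vary like the other groups. Fewest were lower without combination replicate 2. For the difference of the dTAG-13 effect with and without GSI, counts were 0 in each direction in all fits but 1: without DMSO replicate 1, 1 gene was lower (AC079949.1, -2.53, edgeR adjusted p = 0.00154). That difference could not be fitted on the 4 libraries alone.

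Among the chosen genes followed over these fits, signs turned only for 6 uncalled genes with overlapping groups, all on leaving out 1 library. Their log2 fold changes then ran between -0.0471 and 0.0331 for CRBN, -0.2201 and 0.0639 for FKBP1A, -0.3104 and 0.2143 for ID1, -0.1305 and 0.0863 for DTX1, -0.0659 and 0.5942 for HES4, and -0.0276 and 0.5366 for NOTCH3. In the main fit HES4 stood at 0.23 and NOTCH3 at 0.28, and the others lay nearer 0. The cause of these changes was not tested. With 2 libraries a group, small changes of genes at low counts were not detectable.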
